A study of Rattus norvegicus with 12 samples.

Results

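The enzyme HDAC1 works inside large corepressor assemblies, and the transcripts of their other subunits were followed here in rat fibroblasts given an HDAC1 plasmid, the cytokine TGFB1, or both. The set was chosen by gene name and no measured value entered the rule, but earlier results of these data were known. It listed 35 symbols for subunits of the NuRD, SIN3, CoREST and MIER complexes and of the related NCOR complex. Of the 35 symbols, 34 were found, and Tbl1x had no row under that symbol. Sap18 and Tbl1xr1 had 2 gene identifiers each, so the set held 36 gene rows, all of which passed the filter on low counts, among 14601 genes tested of 43360 listed. By complex these were 9 rows of NuRD, 2 rows shared by NuRD and SIN3 (Rbbp4 and Rbbp7), 14 of SIN3, 5 of CoREST, 2 of MIER and 4 of NCOR.

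The cells were NRK-49F, an established fibroblast line from normal rat kidney, and poly(A) RNA was sequenced. Each of 4 groups had 3 libraries. The first carried the plasmid for human HDAC1 with a Flag tag and received 2 ng/ml TGFB1, the second carried the empty vector pcDNA3.1 and received the same dose of TGFB1, the third carried the HDAC1 plasmid and received vehicle, and the fourth carried the empty vector and received vehicle. TGFB1 or vehicle was given for 24 hours in medium with 0.5% FBS, so all 4 groups were transfected and in low serum. The groups come from the sample titles, since the design text describes every cell as treated. Nothing in the labels tells whether the libraries of a group came from separate cultures, so p-values measure only the spread between these libraries, which may be technical. The share of cells that took up a plasmid, and whether the cells were selected for it, are not given in the sources used here. All cells were 1 line, and the deacetylase was the human protein in a rat cell.

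HDAC1 and its close relative HDAC2 remove acetyl groups from histone tails but bind chromatin poorly by themselves; scaffold subunits hold the enzyme and carry it to DNA-bound factors. In NuRD the MTA proteins hold the deacetylase, CHD3 or CHD4 supplies an ATP-driven nucleosome remodeller, and MBD2 or MBD3 and the GATAD2 proteins join these parts of the complex. SIN3A or SIN3B is the scaffold of the SIN3 complex, RCOR proteins join the deacetylase to the histone demethylase KDM1A in CoREST, MIER proteins recruit it through a similar domain pair, and NCOR is built around the related enzyme HDAC3. TGFB1 is the main profibrotic cytokine of kidney fibroblasts, and its SMAD factors are known to work with corepressors such as SKI, SKIL and TGIF1 that bring these complexes to DNA.

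The promoters of 4 subunit genes are shown because these transcripts were higher (Kdm1a, Mta2) or lower (Sin3b, Phf21a) with TGFB1 under both plasmids, with the smallest adjusted p among the subunits that moved that way in both comparisons. Each is the 250 bases before the gene's start in RefSeq, build GRCr8, written 5′ to 3′ on the gene's strand, with matches to the motifs searched in capitals. The rat build used for the counts is not given in the sources used here, so these windows come from RefSeq alone.
Kdm1a, chr5:154121776-154122025, minus strand: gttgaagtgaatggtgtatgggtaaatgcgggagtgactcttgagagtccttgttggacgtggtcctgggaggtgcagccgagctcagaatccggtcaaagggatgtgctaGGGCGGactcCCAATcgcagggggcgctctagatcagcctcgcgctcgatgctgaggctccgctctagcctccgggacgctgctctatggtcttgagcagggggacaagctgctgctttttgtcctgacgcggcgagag
Mta2, chr1:215267036-215267285, plus strand: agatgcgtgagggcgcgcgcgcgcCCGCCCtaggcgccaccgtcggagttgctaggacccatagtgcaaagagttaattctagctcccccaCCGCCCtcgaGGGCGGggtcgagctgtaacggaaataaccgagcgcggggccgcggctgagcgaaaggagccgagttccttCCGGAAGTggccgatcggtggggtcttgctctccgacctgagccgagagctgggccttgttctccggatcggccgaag
Sin3b, chr16:17194052-17194301, minus strand: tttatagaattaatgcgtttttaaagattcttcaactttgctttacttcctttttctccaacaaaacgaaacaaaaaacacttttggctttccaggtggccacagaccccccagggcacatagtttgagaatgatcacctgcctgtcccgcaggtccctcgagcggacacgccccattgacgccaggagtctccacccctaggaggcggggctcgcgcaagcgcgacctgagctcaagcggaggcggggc
Phf21a, chr3:98614597-98614846, plus strand: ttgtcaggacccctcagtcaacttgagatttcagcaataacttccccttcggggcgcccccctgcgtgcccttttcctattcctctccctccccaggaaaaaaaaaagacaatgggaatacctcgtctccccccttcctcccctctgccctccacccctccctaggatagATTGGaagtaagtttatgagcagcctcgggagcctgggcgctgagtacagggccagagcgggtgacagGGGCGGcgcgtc

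In the Kdm1a window a GC box (GGGCGG) at bases 112 to 117 was followed by a CCAAT box at bases 122 to 126, counted from the 5′ end. The Mta2 window held 3 GC boxes, 1 as written at bases 102 to 107 and 2 on the other strand at bases 25 to 30 and 92 to 97, and a match to the ETS motif ACTTCCGG on the other strand at bases 173 to 180. Phf21a had a CCAAT box on the other strand at bases 171 to 175 and a GC box at bases 239 to 244. The Sin3b window matched none of the motifs searched on either strand. A RefSeq promoter was matched by symbol for 33 of the 35 members (Mta3 and Sap18 were not matched). GGGCGG occurred in 23 of these 33 windows and in 32.4% of all 27457 rat promoter windows of the same length, and CCAAT in 19 of 33 and in 34.3% of all. The members' windows were also richer in G and C, with a median of 62.8% for the 33 members and 52.0% for all windows. ACTTCCGG was in 1 member window (3.29% of all windows) and TTTGGCGC, an E2F motif, in 1 (Mier2; 0.426% of all). CACGTG (5.80% of all), TGACGTCA (1.70%), TTTCCCGC (0.856%), GCATGCGC (2.38%) and GTCTAGAC (0.186%), the SMAD palindrome, were in 0 of 33. The motifs did not overlap one another in the windows shown, and a match or its absence describes the letters of the window only.

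Library totals ran from 18397093 to 36652084 counts, and the subunits together took 0.337% to 0.372% of each library. The transcripts of 8 of 10 fibroblast markers were found, and their levels summed to 8968 to 16890 CPM (counts scaled to library size by TMM). Col1a1, Col1a2 and Vim were the highest of them, while Dcn had group means of only 0.232 to 0.757 CPM. Thy1 and Lum had no row under their symbols. Endothelial markers summed to at most 3.89 CPM and the 1 immune marker found, Cd68, to at most 10.1 CPM. Of 6 epithelial markers, Krt8 was at 1144 to 1758 CPM and Pax8 at only 0.447 to 1.09 CPM. Epcam, Cdh1, Cdh16 and Krt18 had no row under their symbols. Of the genes tested, 1909 had no symbol, so a missing symbol does not show that a gene was silent. Heart and brain transcripts were present in every library. The 12 heart markers summed to 114 to 131 CPM with HDAC1 and TGFB1, to 342 to 435 CPM with the empty vector and TGFB1, to 185 to 361 CPM with HDAC1 in vehicle, and to 52.8, 305 and 324 CPM with the empty vector in vehicle. The 11 brain markers found of 12 moved alongside, and Gfap had no row. The source of the heart and brain transcripts was not tested, and their presence does not show that heart or brain cells were there. For any marker, bulk RNA cannot tell a smaller number of cells from less RNA per cell. Replicate 1 of the empty vector group in vehicle had the lowest heart and brain sums. Replicate 3 of the empty vector group with TGFB1 had the widest deviations of the subunits from their group means (SD of 0.147 on the log2 scale, against 0.0436 to 0.107 in the other 11 libraries), with Ncor1, Rcor1 and Chd4 low and Sap18, Sap30l and Gps2 high. Subunit calls that changed without either or both of these 2 libraries are named with the comparisons.

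The transfected enzyme was visible in every HDAC1 library. Hdac1 measured 501, 416 and 474 CPM with HDAC1 and TGFB1, against 259, 250.2 and 290.4 CPM with the empty vector and TGFB1. In vehicle it measured 428, 375 and 460.4 CPM with HDAC1, against 212, 205 and 212 CPM with the empty vector. The groups did not overlap in either condition (log2 fold change 0.80 ± 0.08, where ± is the SE for log2 fold changes throughout, adjusted p = 1.60e-05 with TGFB1, and 1.00 ± 0.08, adjusted p = 9.29e-07 in vehicle, edgeR). A second row, Hdac1l, reached 802 to 1367 CPM in the 6 HDAC1 libraries, against 0.530 to 15.1 CPM in the 6 empty vector libraries. Hdac1l is a near copy of Hdac1, and the handling of reads that match both is not given in the sources used here, so the share of plasmid reads in each row is uncertain. Their sum was 1553 ± 291 CPM with HDAC1 and TGFB1 against 275.8 ± 22.7 CPM with the empty vector and TGFB1 (SD, n = 3 each), a ratio of 5.63. In vehicle the sum was 1593 ± 321 CPM with HDAC1 and 218 ± 4.97 CPM with the empty vector, a ratio of 7.31. Hdac2, the partner enzyme in the same complexes, was not called with HDAC1 (log2 fold change 0.12, 95% interval -0.01 to 0.25 with TGFB1, and 0.10, 95% interval -0.04 to 0.23 in vehicle).

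The first comparison asked whether the subunit transcripts differed when more HDAC1 was present. With TGFB1, 0 of the 36 subunit rows were called between HDAC1 and the empty vector at an adjusted p under 0.05, where 6.53% of all genes tested were called. At an unadjusted p under 0.05 there were 5, and DESeq2 called 1 (Rbbp4). No share of all genes is given for either count, so neither is set against a background. In vehicle, 2 of 36 rows were called, Rbbp7 higher and Chd3 lower, which is 5.56% beside 14% of all genes tested. The median log2 fold change of the subunits was 0.0041 with TGFB1 (all genes -0.0015) and 0.0223 in vehicle (all genes -0.0082). In size the subunits' log2 fold changes had a median of 0.0744 with TGFB1 (all genes 0.134) and 0.093 in vehicle (all genes 0.148). In each of the 2 comparisons, 35 of 36 rows had a 95% interval that lay within 0.5 of 0 on the log2 scale. The exception in both was the Sap18 row ENSRNOG00000020771, which had only 24 to 56 counts per library.

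Rbbp7, a histone-binding WD40 protein shared by NuRD and SIN3, measured 296, 278 and 281 CPM with HDAC1 in vehicle, against 247, 249.8 and 240.4 CPM with the empty vector in vehicle. The lowest HDAC1 library exceeded the highest empty vector library (log2 fold change 0.21 ± 0.06, adjusted p = 0.0126, edgeR). With TGFB1 it measured 322, 314 and 321 CPM with HDAC1 and 293, 297 and 306 CPM with the empty vector. These groups were also apart, but the difference was not called (log2 fold change 0.09, 95% interval -0.02 to 0.21, adjusted p = 0.332). Over both conditions the average effect of HDAC1 on Rbbp7 was 0.15 ± 0.04 (adjusted p = 0.00863), and both this call and the one in vehicle held without any 1 of the 12 libraries.

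Chd3, a NuRD remodeller ATPase, measured 166, 181 and 184 CPM with HDAC1 in vehicle, against 214, 210 and 199 CPM with the empty vector in vehicle. All 3 HDAC1 libraries were lower (log2 fold change -0.23 ± 0.07, adjusted p = 0.0263, edgeR). With TGFB1 it measured 233, 252 and 242 CPM with HDAC1 and 274, 244 and 232 CPM with the empty vector, and these groups overlapped. The call in vehicle ended when HDAC1 replicate 1 or 3 or empty vector replicate 1 or 2 of the vehicle groups was left out (log2 fold changes from -0.24 to -0.17 over all such fits), and when the summed heart and brain transcripts were a covariate.

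Averaged over vehicle and TGFB1, 4 of 36 rows were called (11.1%, beside 20.2% of all genes tested): Rbbp7 and Rcor1 higher, Chd3 and Sin3b lower. Rcor1, the CoREST scaffold, measured 92.4, 96.5 and 101 CPM with HDAC1 and TGFB1 against 93.7, 90.0 and 74.0 CPM with the empty vector and TGFB1, and 75.4, 73.2 and 84.6 CPM with HDAC1 in vehicle against 69.8, 68.4 and 67.7 CPM with the empty vector in vehicle. The vehicle groups did not overlap, and with TGFB1 the 2 closest libraries of the 2 groups were at 92.4 and 93.7 CPM, so those groups did. Its average log2 fold change was 0.17 ± 0.06 (adjusted p = 0.0308). Sin3b, a SIN3 scaffold, had an average of -0.12 ± 0.04 (adjusted p = 0.0487), and Chd3 one of -0.14 ± 0.05 (adjusted p = 0.0487). The call for Chd3 ended in 11 of the 12 fits that left out 1 library, the call for Sin3b in 10 of 12 (without either library that stood apart among them), and the call for Rcor1 without HDAC1 replicate 3 of either condition. With heart and brain transcripts as a covariate, only the call for Rbbp7 held of these 4. Without replicate 3 of the empty vector group with TGFB1, Rcor1 was also called for HDAC1 in vehicle, and without both libraries that stood apart the Sap18 row ENSRNOG00000064694 was. Gatad2a was called on average without replicate 1 of the empty vector group in vehicle, with no filter, with a mean CPM of at least 1 and by DESeq2. Rbbp4 was called on average with DESeq2 size factors, with a mean CPM of at least 1 and by DESeq2. Some other fits that left out 1 library called Gatad2a or Rbbp4 as well. The average calls for Chd3 and Sin3b also ended with DESeq2 size factors, with no filter and with a mean CPM of at least 1.

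**Figure D1:**
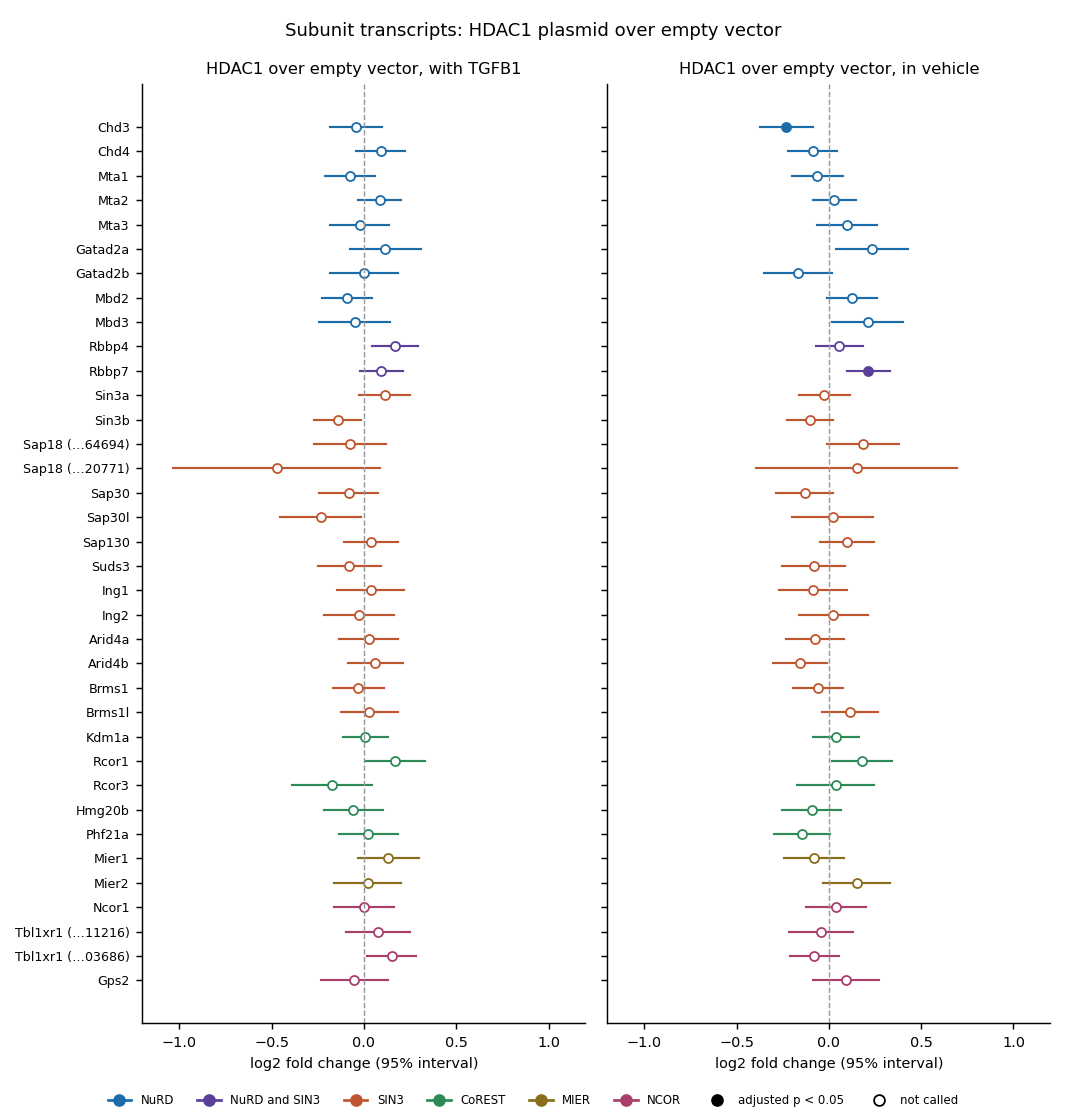
Log2 fold changes of the 36 subunit rows for HDAC1 over the empty vector, with TGFB1 (left) and in vehicle (right), with 95% intervals from the edgeR fit to all 12 libraries. Filled points passed an adjusted p of 0.05; they are Chd3 (-0.23) and Rbbp7 (0.21) in vehicle, and with TGFB1 there is none.

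The second comparison asked what TGFB1 did to the same transcripts under each plasmid. With HDAC1, 17 of 36 rows were called between TGFB1 and vehicle (47.2%, beside 49.1% of all genes tested). Of these 14 were higher (38.9%, beside 24.9% of all genes) and 3 lower (8.33%, beside 24.2%). With the empty vector, 19 of 36 were called (52.8%, beside 50.9% of all genes tested), 14 higher (38.9%, beside 25.9%) and 5 lower (13.9%, beside 25%). So as many subunits changed as genes in general, and more of those that changed were higher than lower. The median log2 fold change was 0.0738 with HDAC1 (all genes -0.0194) and 0.13 with the empty vector (all genes 0.0125), and the sizes were moderate, with a median of 0.181 with HDAC1 (all genes 0.299) and 0.215 with the empty vector (all genes 0.326). The pairs of groups share no library between these 2 comparisons. Called in both were 12 rows, 10 higher (Chd3, Mta1, Mta2, Gatad2a, Rbbp4, Rbbp7, Suds3, Ing1, Kdm1a and Rcor1) and 2 lower (Sin3b and Phf21a), and 0 were called in opposite directions. Mitotic transcripts moved with TGFB1 as well: 10 markers summed to 1997 to 2174 CPM with HDAC1 and TGFB1 against 1598 to 1798 CPM with HDAC1 in vehicle, and to 1717 to 1847 CPM with the empty vector and TGFB1 against 1114 to 1242 CPM with the empty vector in vehicle. Of the 10 markers, 7 were called higher with HDAC1 (beside 24.9% of all genes) and 10 with the empty vector (beside 25.9%). Their part in the subunit changes was not tested.

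**Figure D2:**
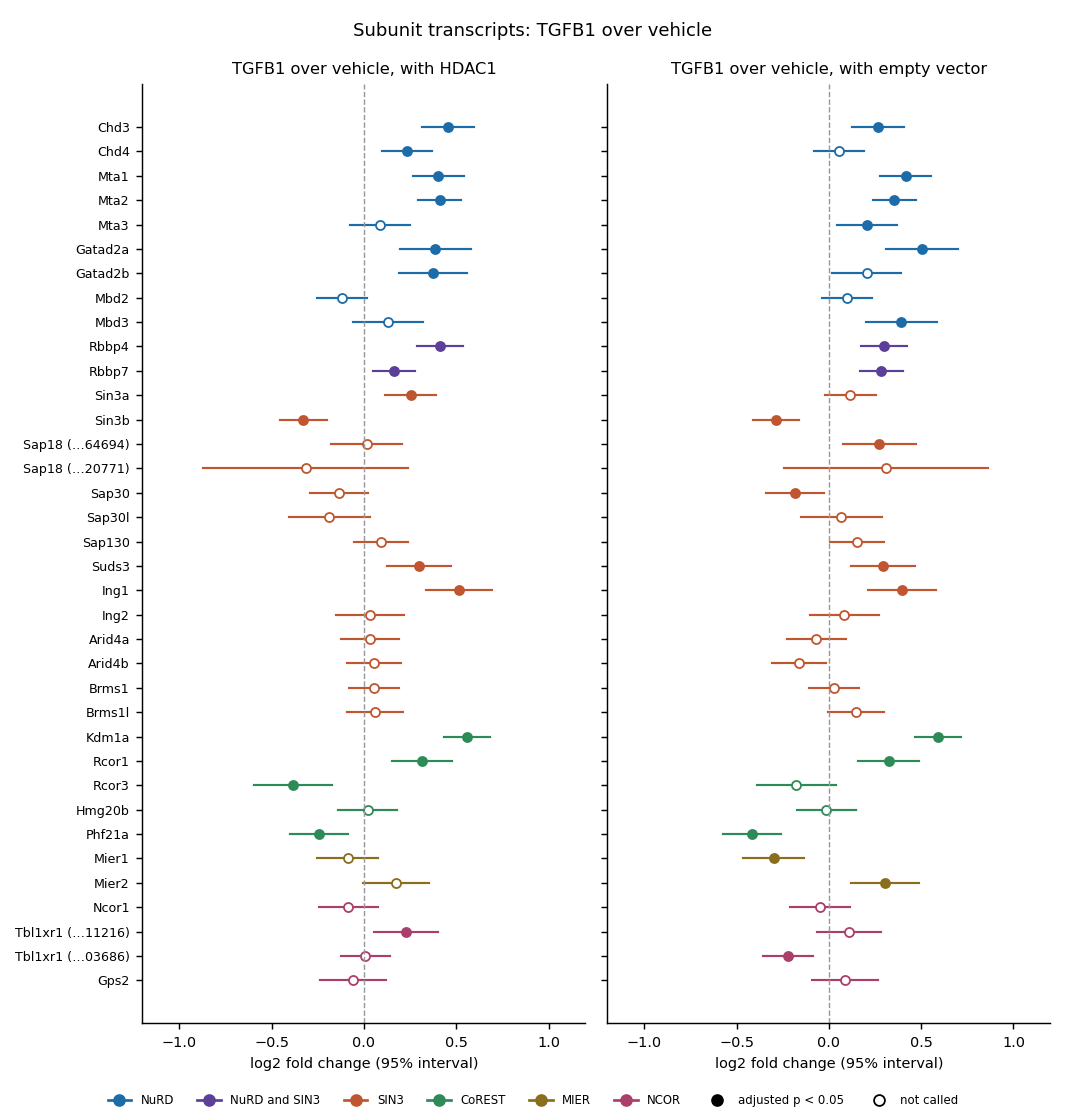
Log2 fold changes of the 36 subunit rows for TGFB1 over vehicle, with HDAC1 (left) and with the empty vector (right), with 95% intervals from the same fit; filled points passed an adjusted p of 0.05. NuRD rows lie mostly right of 0 in both panels, Kdm1a is farthest right in both (0.56 and 0.59), and Sin3b and Phf21a lie left of 0 in both.

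In NuRD, 6 of 9 subunits rose with TGFB1 under each plasmid and 0 fell (66.7% higher, beside 24.9% of all genes with HDAC1 and 25.9% with the empty vector), with a median log2 fold change of 0.37 with HDAC1 and 0.27 with the empty vector. Mta2, a scaffold that holds the deacetylase, measured 221, 232 and 230.2 CPM with HDAC1 and TGFB1 against 168, 174 and 172 CPM with HDAC1 in vehicle. With the empty vector it measured 220, 215 and 209.5 CPM with TGFB1 and 173, 165 and 166 CPM in vehicle. The 6 TGFB1 libraries all lay above the 6 vehicle libraries (log2 fold change 0.41 ± 0.05, adjusted p = 2.95e-06 with HDAC1, and 0.35 ± 0.06, adjusted p = 1.55e-05 with the empty vector). Mta1, its paralog and the first of the family described as metastasis-associated, was at 91.8, 100.3 and 95.6 CPM with HDAC1 and TGFB1 against 70.1, 76.4 and 71.1 CPM with HDAC1 in vehicle, and at 104, 94.4 and 104 CPM with the empty vector and TGFB1 against 76.7, 71.2 and 79.2 CPM with the empty vector in vehicle. Its groups did not overlap under either plasmid (log2 fold change 0.40 with HDAC1 and 0.42 with the empty vector). Mta3, the third scaffold, was called with the empty vector (log2 fold change 0.21, adjusted p = 0.0306, edgeR) and not with HDAC1 (0.09, adjusted p = 0.367). The call with the empty vector ended in 5 of the 12 fits that left out 1 library. It also ended with no filter, with the heart and brain covariate and with only the groups compared.

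Of the remodellers, Chd3 rose under both plasmids. From the values above, all 3 HDAC1 libraries with TGFB1 were above all 3 in vehicle (log2 fold change 0.45 ± 0.07, adjusted p = 1.15e-05), and likewise the empty vector libraries (0.27 ± 0.07, adjusted p = 0.00238). Chd4, the main NuRD remodeller in most cell types, was called with HDAC1 (means of 564 ± 6.90 CPM with TGFB1 and 481 ± 20.2 CPM in vehicle, SD, n = 3 each; log2 fold change 0.23, adjusted p = 0.00545). With the empty vector its log2 fold change was 0.05 (95% interval -0.08 to 0.19), and replicate 3 with TGFB1, at 480 CPM, was the lowest of its group. Gatad2a, a bridge between the remodeller and the deacetylase, was at 78.9, 93.3 and 93.5 CPM with HDAC1 and TGFB1 against 60.1, 69.9 and 73.8 CPM with HDAC1 in vehicle, and at 85.3, 85.0 and 75.2 CPM with the empty vector and TGFB1 against 62.4, 50.0 and 60.4 CPM with the empty vector in vehicle. It rose in both comparisons (log2 fold change 0.39 and 0.51). Its paralog Gatad2b was called with HDAC1 (0.37, adjusted p = 0.00147) and, at 0.20 (95% interval 0.02 to 0.39), not with the empty vector, where it was called without replicate 3 of the empty vector group with TGFB1 or without replicate 3 of the HDAC1 group in vehicle. Mbd3, which occupies NuRD in place of the methyl-CpG reader Mbd2, was called with the empty vector (0.39, adjusted p = 0.00144) and not with HDAC1 (0.13, 95% interval -0.06 to 0.32). Mbd2 itself was not called in either comparison (-0.12 with HDAC1 and 0.10 with the empty vector), but was called with HDAC1 when replicate 3 of the empty vector group with TGFB1 was left out.

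The histone chaperones Rbbp4 and Rbbp7, which sit in both NuRD and SIN3, rose with TGFB1 under both plasmids. Rbbp4 measured 159, 144 and 142 CPM with HDAC1 and TGFB1 against 108, 113 and 114 CPM with HDAC1 in vehicle, and 134, 132 and 130.2 CPM with the empty vector and TGFB1 against 109.5, 109 and 104 CPM with the empty vector in vehicle. No TGFB1 library reached down to the vehicle range (log2 fold change 0.41 ± 0.06 with HDAC1, adjusted p = 8.96e-06, and 0.30 ± 0.06 with the empty vector, adjusted p = 0.000308). For Rbbp7, whose values are given above, the log2 fold change was 0.16 ± 0.06 with HDAC1 (adjusted p = 0.0203) and 0.28 ± 0.06 with the empty vector (adjusted p = 0.000238). The call with HDAC1 ended in 6 of the 12 fits that left out 1 library, with no filter and with the heart and brain covariate. RBBP4 also belongs to the chromatin assembly factor that loads histones behind replication forks, outside the deacetylase complexes.

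Of the 14 SIN3 rows, 3 rose and 1 fell with TGFB1 under HDAC1 (28.6% called, beside 49.1% of all genes tested), and 3 rose and 2 fell under the empty vector (35.7%, beside 50.9%). The share that rose, 21.4% under each plasmid, was near the 24.9% and 25.9% of all genes. Sin3b was lower with TGFB1 in every pairing: 110.4, 113 and 110.5 CPM with HDAC1 and TGFB1 against 138, 146 and 135 CPM with HDAC1 in vehicle, and 122, 116 and 131 CPM with the empty vector and TGFB1 against 154, 145 and 149.9 CPM with the empty vector in vehicle. The groups did not overlap, with the lowest values where HDAC1 and TGFB1 were combined (log2 fold change -0.33 ± 0.06, adjusted p = 0.000126 with HDAC1, and -0.29 ± 0.06, adjusted p = 0.000437 with the empty vector). Sin3a, the other scaffold, was called higher with HDAC1 (0.25 ± 0.07, adjusted p = 0.00320) and not with the empty vector (0.12, 95% interval -0.02 to 0.25). Without replicate 3 of the empty vector group with TGFB1, Sin3a was called with the empty vector too. Ing1, whose PHD finger reads methylated histone tails and which was first described as a growth inhibitor, measured 24.8, 23.3 and 23.5 CPM with HDAC1 and TGFB1 against 15.8, 16.8 and 17.5 CPM with HDAC1 in vehicle, and 23.6, 21.0 and 25.2 CPM with the empty vector and TGFB1 against 18.9, 16.9 and 17.2 CPM with the empty vector in vehicle. All TGFB1 libraries were above all vehicle libraries (log2 fold change 0.52 ± 0.09 with HDAC1, adjusted p = 4.84e-05, and 0.40 ± 0.09 with the empty vector, adjusted p = 0.000754). Its paralog Ing2 was not called (0.03 and 0.08).

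Suds3, which stabilises the SIN3 core and stimulates its deacetylase, was called higher in both comparisons (log2 fold change 0.30 with HDAC1 and 0.29 with the empty vector), although its call with HDAC1 ended without replicate 2 of the HDAC1 group with TGFB1 and with the heart and brain covariate. Sap30, a bridging subunit, was called lower with the empty vector and not with HDAC1 (-0.18, adjusted p = 0.0487, edgeR), and this call ended in 5 of the 12 fits that left out 1 library. It also ended with no filter, with the replicate number as a block, with the heart and brain covariate and with only the groups compared. The Sap18 row ENSRNOG00000064694 was called higher with the empty vector and not with HDAC1 (0.27, adjusted p = 0.0197). Its values of 113, 119 and 147 CPM with TGFB1 against 112, 92.4 and 109 CPM in vehicle show replicate 3 far above the others with TGFB1, and the call ended without that library, at a log2 fold change of 0.13, and without replicate 2 in vehicle. Leaving out both libraries that stood apart ended 4 of the 19 calls with the empty vector (Mta3, Sap18, Sap30 and the Tbl1xr1 row ENSRNOG00000003686) and added Sap130, which was also called without replicate 3 of the empty vector group with TGFB1 alone. Without that library Sap30l was called with HDAC1. The other SIN3 rows, Sap30l, Sap130, Ing2, Arid4a, Arid4b, Brms1, Brms1l and the low Sap18 row, were not called in either comparison. Apart from the low Sap18 row, their log2 fold changes lay between -0.19 (Sap30l with HDAC1) and 0.15 (Sap130 with the empty vector).

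CoREST held the subunit with the smallest adjusted p. Kdm1a, the demethylase of the complex, also called LSD1, measured 89.0, 91.1 and 93.4 CPM with HDAC1 and TGFB1 against 61.0, 62.4 and 62.2 CPM with HDAC1 in vehicle. With the empty vector it measured 94.4, 89.9 and 87.9 CPM with TGFB1 and 63.0, 58.1 and 59.8 CPM in vehicle. The 6 TGFB1 libraries lay between 87.9 and 94.4 CPM and the 6 vehicle libraries between 58.1 and 63.0 CPM, a rise of 1.47-fold with HDAC1 and 1.5-fold with the empty vector (log2 fold change 0.56 ± 0.06, adjusted p = 1.28e-07, and 0.59 ± 0.06, adjusted p = 5.42e-08). Between the plasmids its log2 fold change was 0.01 with TGFB1 (95% interval -0.12 to 0.13) and 0.04 in vehicle (95% interval -0.09 to 0.16). Rcor1, the scaffold that couples KDM1A to the deacetylase, also rose with TGFB1 (log2 fold change 0.31 ± 0.08 with HDAC1 and 0.32 ± 0.08 with the empty vector). Its libraries with the empty vector and TGFB1 included replicate 3 at 74.0 CPM, the lowest of that group and still above the 3 in vehicle, while with HDAC1 all TGFB1 libraries were above all in vehicle.

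Phf21a, the CoREST subunit that binds unmethylated histone tails, went the other way. It measured 26.9, 28.8 and 26.8 CPM with HDAC1 and TGFB1 against 32.7, 33.4 and 31.6 CPM with HDAC1 in vehicle, and 28.0, 28.5 and 24.6 CPM with the empty vector and TGFB1 against 36.8, 35.1 and 36.3 CPM with the empty vector in vehicle. Every TGFB1 library was below every vehicle library (log2 fold change -0.24 ± 0.07, adjusted p = 0.00998 with HDAC1, and -0.42 ± 0.07, adjusted p = 9.06e-05 with the empty vector). Rcor3, an alternative scaffold, was called lower with HDAC1 (-0.38 ± 0.10, adjusted p = 0.00379) and not with the empty vector (-0.18, 95% interval -0.39 to 0.04). Hmg20b, a DNA-bending HMG-box subunit, was called in neither (0.02 and -0.01).

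**Figure D3:**
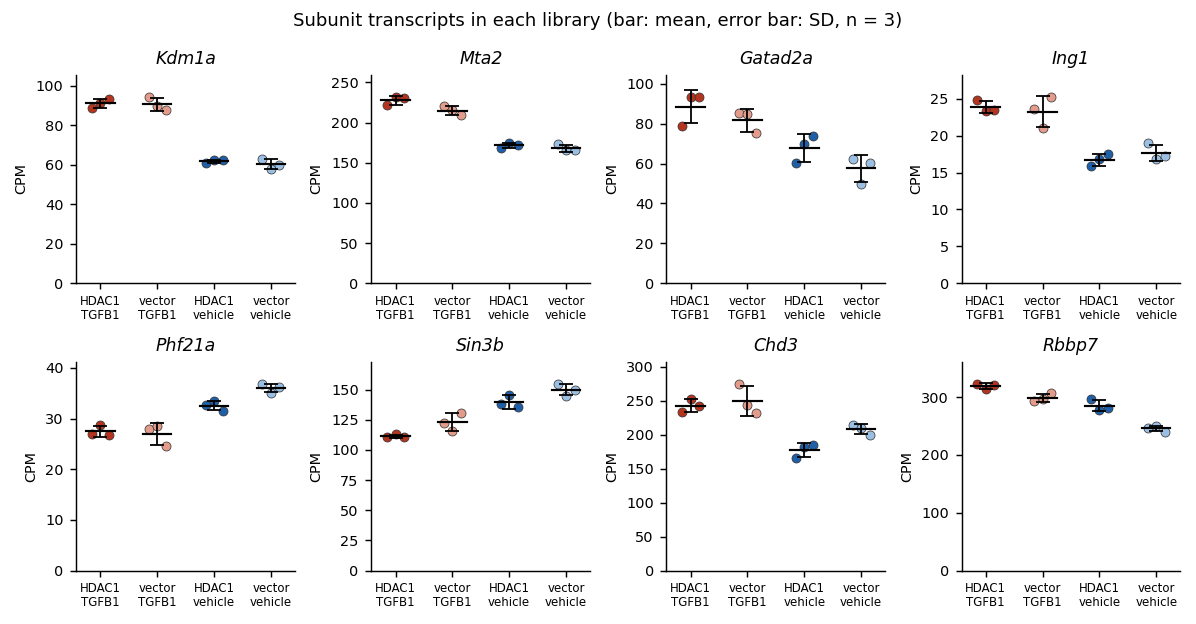
Levels in CPM of 8 subunits in each library, by group from left to right: HDAC1 with TGFB1, empty vector with TGFB1, HDAC1 in vehicle, empty vector in vehicle; bars are means and error bars SD (n = 3). Kdm1a, Mta2, Gatad2a and Ing1 are higher and Phf21a and Sin3b lower in the TGFB1 groups under both plasmids, and Chd3 and Rbbp7 are the 2 transcripts that also differed between plasmids in vehicle.

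The MIER scaffolds moved in opposite directions with the empty vector. Mier1 measured 83.3, 91.6 and 73.3 CPM with the empty vector and TGFB1 against 103, 108 and 95.3 CPM with the empty vector in vehicle, a fall without overlap (log2 fold change -0.30 ± 0.08, adjusted p = 0.00338). Mier2 measured 22.5, 22.4 and 21.7 CPM with TGFB1 against 19.5, 16.2 and 18.1 CPM in vehicle, a rise without overlap (0.30 ± 0.09, adjusted p = 0.00629). With HDAC1 neither was called. There Mier1 was at 99.4, 82.6 and 90.6 CPM with TGFB1 and 98.0, 94.9 and 96.5 CPM in vehicle, overlapping groups (-0.09, 95% interval -0.25 to 0.08), and Mier2 was at 21.4, 22.6 and 23.4 CPM with TGFB1 and 19.0, 21.6 and 19.4 CPM in vehicle, also overlapping (0.17, 95% interval -0.00480 to 0.35).

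In each TGFB1 comparison 1 of 4 NCOR rows was called (25%, beside 49.1% of all genes with HDAC1 and 50.9% with the empty vector). Tbl1xr1, the exchange factor that swaps corepressors for coactivators on nuclear receptors, was counted under 2 identifiers. ENSRNOG00000011216 was at 79.3, 69.1 and 72.3 CPM with HDAC1 and TGFB1 against 57.4, 63.3 and 67.7 CPM with HDAC1 in vehicle (0.23 ± 0.08, adjusted p = 0.0272, edgeR). The call ended in 5 of the 12 fits that left out 1 library and with the heart and brain covariate. ENSRNOG00000003686 was at 99.8, 100.1 and 85.3 CPM with the empty vector and TGFB1 against 113, 110 and 109.7 CPM with the empty vector in vehicle (-0.22 ± 0.06, adjusted p = 0.00669). The rows share a symbol and were called in opposite directions, in different comparisons. How reads were divided between them is uncertain, and no direction is given for the gene. Ncor1, the scaffold, and Gps2, which links it to the rest of the complex, were not called (Ncor1 -0.08 with HDAC1 and -0.05 with the empty vector, Gps2 -0.06 and 0.09). Hdac3, the enzyme of NCOR, was lower with TGFB1 under both plasmids, with means of 99.2 ± 2.21 CPM with HDAC1 and TGFB1 against 118 ± 2.53 CPM with HDAC1 in vehicle and of 95.1 ± 6.40 CPM with the empty vector and TGFB1 against 109.8 ± 6.81 CPM with the empty vector in vehicle (SD, n = 3 each; log2 fold change -0.26, adjusted p = 0.00228, and -0.21, adjusted p = 0.0101). Hdac2 was higher, at 152, 140.4 and 138 CPM with HDAC1 and TGFB1 against 92.5, 85.3 and 88.3 CPM with HDAC1 in vehicle, and at 132, 127 and 138 CPM with the empty vector and TGFB1 against 80.9, 87.2 and 81.1 CPM with the empty vector in vehicle (log2 fold change 0.69 and 0.67).

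Whether TGFB1 acted differently on a subunit when HDAC1 was present was tested as the difference between the HDAC1 effects with TGFB1 and in vehicle. Of 36 rows 0 were called, where 0.479% of all genes tested were, and DESeq2 also called 0. At an unadjusted p under 0.05 there were 3 rows (the Tbl1xr1 row ENSRNOG00000003686, Mbd2 and Arid4b). No share of all genes is given for that count. The smallest adjusted p was 0.273. So subunits called under only 1 plasmid, such as Chd4, Sin3a, Rcor3, Mbd3, Mier1 and Mier2, were not shown to differ between plasmids in their response. For 31 of 36 rows the 95% interval of this difference lay within 0.5 of 0 on the log2 scale; the others were Mbd3, Sap30l, Rcor3 and both Sap18 rows.

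Several scaffolds have a paralog that takes the same place in the complex, so the ratio of the pair within a library was compared between groups. The ratio cancels library scaling, but transcript lengths were not used, so only its change between groups has a meaning, not its level. Of 14 pairs listed, 13 had 1 row for each gene, and 52 ratio comparisons were computed. With 3 libraries against 3, the exact two-sided permutation test cannot go below p = 0.1, so none could reach 0.05. No pair was apart in both HDAC1 comparisons, but several were apart in 1 of them. Besides those given below, Gatad2b to Gatad2a (-0.41), Brms1l to Brms1 (0.17), Rbbp7 to Rbbp4 (0.16) and Chd3 to Chd4 (-0.14) were apart in vehicle. Mta1 to Mta2 was apart with TGFB1 (-0.16). The 3 pairs that were apart by at least 0.5 on the log2 scale in a TGFB1 comparison are described here. A lack of overlap was not particular to them. Among smaller differences, Ing2 to Ing1 (-0.48 with HDAC1 and -0.31 with the empty vector), Mbd2 to Mbd3 (-0.24 and -0.30) and Chd3 to Chd4 (0.22 and 0.21) were apart with TGFB1 under both plasmids. The log2 ratio of Sin3b to Sin3a was -0.06, 0.05 and 0.02 with HDAC1 and TGFB1 against 0.65, 0.63 and 0.49 with HDAC1 in vehicle, and 0.19, 0.11 and 0.49 with the empty vector and TGFB1 against 0.72, 0.56 and 0.72 with the empty vector in vehicle. It was lower by 0.58 with HDAC1 and by 0.40 with the empty vector, without overlap (p = 0.1 each, exact permutation test). With TGFB1 it was also lower with HDAC1 than with the empty vector, by 0.26 (p = 0.1, exact). When 1 library was left out, this difference ranged from -0.33 to -0.14.

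The log2 ratio of Rcor3 to Rcor1 was -2.55, -2.71 and -2.82 with HDAC1 and TGFB1 against -1.93, -1.89 and -2.18 with HDAC1 in vehicle, and -2.35, -2.38 and -2.33 with the empty vector and TGFB1 against -1.68, -2.02 and -1.90 with the empty vector in vehicle. TGFB1 libraries were the lower ones under each plasmid, by 0.70 with HDAC1 and by 0.49 with the empty vector (p = 0.1 each, exact permutation test). HDAC1 libraries were lower than empty vector libraries with TGFB1, by 0.34 (p = 0.1, exact). For Mier2 to Mier1 the ratio was -1.89, -2.03 and -1.75 with the empty vector and TGFB1 against -2.40, -2.73 and -2.39 with the empty vector in vehicle, higher by 0.61 with no overlap. The corresponding groups with HDAC1 overlapped, at -2.21, -1.87 and -1.95 with TGFB1 and -2.36, -2.13 and -2.31 in vehicle. In vehicle the ratio was also higher with HDAC1 than with the empty vector, by 0.24 without overlap (p = 0.1, exact permutation test).

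**Figure D4:**
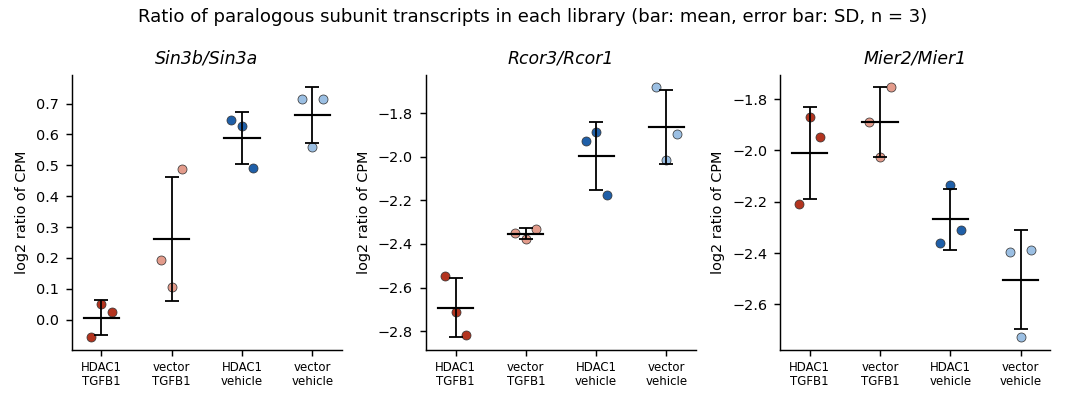
Log2 ratio of CPM of 3 paralog pairs in each library, by group as in the plot of levels; bars are means and error bars SD (n = 3). Sin3b to Sin3a and Rcor3 to Rcor1 are lowest with HDAC1 and TGFB1 (means of 0.0061 and -2.69) and highest with the empty vector in vehicle (0.66 and -1.86).

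Proteins that join these complexes in some cells, or that bring them to DNA, were counted from further lists. Among 10 genes related to NuRD, Cdk2ap1 (the DOC1 subunit) was called higher with HDAC1 in vehicle (0.34 ± 0.07, adjusted p = 0.00165) and with TGFB1 under the empty vector (0.58 ± 0.07), and the difference between its HDAC1 effects with TGFB1 and in vehicle was called (-0.47 ± 0.09, adjusted p = 0.0290). Its paralog Cdk2ap2 fell with TGFB1 under both plasmids (-0.59 with HDAC1 and -0.58 with the empty vector). Zmynd8, a reader of modified histones that binds NuRD, was called lower with HDAC1 in vehicle (-0.22), on average over both conditions (-0.16) and with TGFB1 under the empty vector (-0.18). Averaged over conditions, Pwwp2b (-0.23) and Cdk2ap2 (-0.17) were lower with HDAC1 too, and with HDAC1 present Pwwp2b fell (-0.23) and Zfpm2 rose (0.21) with TGFB1. In all, 3 of 10 were called in each TGFB1 comparison, 1 higher and 2 lower (30%, below the 49.1% of all genes with HDAC1 and the 50.9% with the empty vector).

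Of 6 SIN3-associated genes tested (Sap25 of the list was not tested), Sinhcaf, a stable partner of SIN3, had the largest change, at 80.8, 72.4 and 73.9 CPM with HDAC1 and TGFB1 against 40.0, 37.9 and 39.1 CPM with HDAC1 in vehicle, and at 68.0, 72.1 and 63.9 CPM with the empty vector and TGFB1 against 39.5, 36.7 and 38.1 CPM with the empty vector in vehicle (log2 fold change 0.96 ± 0.07, adjusted p = 3.17e-10, and 0.84 ± 0.07, adjusted p = 2.73e-09). Its TGFB1 libraries were all well above its vehicle libraries. Foxk2, a forkhead factor that recruits SIN3, rose (0.47 with HDAC1 and 0.51 with the empty vector), Ogt, a sugar transferase bound to SIN3A, fell (-0.30 and -0.48), and Phf12 was called higher with HDAC1 and not with the empty vector (0.20). In total 3 rose and 1 fell of 6 with HDAC1 (66.7%, beside 49.1% of all genes), and 2 rose and 1 fell with the empty vector (50%, beside 50.9%). Foxk2 was also higher on average with HDAC1 (0.12). Among the CoREST-related genes, Rcor2, a scaffold paralog, rose under both plasmids (0.78 with HDAC1 and 0.62 with the empty vector), while Zmym3 fell with the empty vector (-0.19). Of 6 genes related to MIER or to the mitotic deacetylase complex, Cdyl rose (0.40 and 0.33), and Rere (-0.46 and -0.66) and Trerf1 (-0.54 and -0.60) fell in both comparisons (50% called in each, beside 49.1% of all genes with HDAC1 and 50.9% with the empty vector).

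Among 20 recruiting factors tested of 21 listed (Snai1 was not tested), 14 were called with TGFB1 under HDAC1, 8 higher and 6 lower (70%, beside 49.1% of all genes tested), and 13 under the empty vector, 7 higher and 6 lower (65%, beside 50.9%). Skil, a SMAD-bound corepressor and known TGFB1 target, rose (1.23 ± 0.07 with HDAC1 and 1.06 ± 0.07 with the empty vector), as did Runx1 (1.11 ± 0.07 and 1.25 ± 0.08), and Ski was among those higher with HDAC1 (0.60). Snai2, a repressor that binds KDM1A, fell (-0.95 ± 0.12 and -1.52 ± 0.12). The MYC antagonist Mxd4, which docks on SIN3, was lower in both factors. It measured 16.4, 22.8 and 19.6 CPM with HDAC1 and TGFB1, 32.0, 25.3 and 33.0 CPM with the empty vector and TGFB1, 37.2, 57.3 and 42.8 CPM with HDAC1 in vehicle and 90.3, 90.2 and 79.8 CPM with the empty vector in vehicle. The 4 groups did not overlap and stood in that order from low to high. Its log2 fold change for HDAC1 was -0.61 ± 0.17 with TGFB1 (adjusted p = 0.0474) and -0.93 ± 0.15 in vehicle (adjusted p = 0.00126), and for TGFB1 it was -1.53 ± 0.16 with the empty vector. Other recruiters called for HDAC1 were Snai2 with TGFB1 (0.64, higher) and, in vehicle, Mxd3 (0.37), Mnt (-0.29) and Mxi1 (-0.24), which are partners or antagonists in the MYC network. Mitotic markers differed between the plasmids too. With HDAC1, 3 of 10 were called higher under TGFB1 (beside 317 of 14601 genes) and 10 of 10 in vehicle (beside 969 of 14601). Their part in these differences was not tested.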

How the data were processed

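Per the labels' protocols, poly(A) libraries of NRK-49F cells were made after 24 hours in 0.5% FBS with or without 2 ng/ml TGFB1. Per the submitters' processing notes, the tools were Trim Galore 0.6.7 for trimming, featureCounts of Subread 2.0.1 for counting and DESeq2 1.44. A mouse build, mm10, is named there, although both tables use rat Ensembl identifiers. The aligner, the rat build, strand use and the treatment of reads that match several genes are not given in the sources used here. The authors deposited raw counts per gene for 43360 rows, used for all tests, and a normalized signal for 14275 genes, used for symbols only. Checked against the deposited counts, each column of that signal is the count column divided by 1 constant.

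Genes were filtered with filterByExpr by group and scaled with TMM in edgeR 4.0.16 (R 4.3.3). A robust quasi-likelihood model with a separate mean for each group covered all 12 libraries (8 residual degrees of freedom, common biological coefficient of variation 7.61%), and the two-sided call threshold was an adjusted p of 0.05 (Benjamini-Hochberg across the 14601 genes tested). Comparisons were HDAC1 over empty vector with TGFB1, in vehicle and on average, TGFB1 over vehicle under each plasmid, and the interaction. Levels are CPM after TMM scaling, with SD over 3 libraries; depth ran from 18397093 to 36652084 counts, and intervals come from the model. Paralog ratios are log2 ratios of CPM with a prior count of 2, compared with an exact two-sided permutation test. The edgeR fit was run on simulated counts with known changes for HDAC1 in vehicle, which were larger than most subunit changes reported here. The intervals and paralog ratios were not tried on simulated counts. Every subunit called is named, up to 2 per complex and comparison are given in every library, of further lists up to 4 called genes per comparison are named, and so are paralog pairs apart by at least 0.5 on the log2 scale with TGFB1. The subunits and all lists were chosen with earlier results of these data known. Some genes of the further lists are not reported here. The alternatives comprised no filter, size factors of DESeq2 1.42.0 and its Wald test, a mean CPM of at least 1, only the groups compared, the replicate number as a block, heart and brain transcripts as a covariate, and leaving out each library; leaving out 2 libraries together was chosen after seeing the data. Promoters came from RefSeq (GRCr8). The replicates of a group differed by more than counting noise, so none was treated as a duplicate.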

Additional observations from a re-analysis of the deposited data

Results flagged for a closer look

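Cdk2ap1, which encodes the DOC1 subunit found in some NuRD complexes and was counted among the related genes, responded differently to HDAC1 with TGFB1 and in vehicle. With TGFB1 it measured 109, 114 and 122 CPM with HDAC1 against 128, 121 and 129.5 CPM with the empty vector, and in vehicle 98.9, 115 and 106 CPM with HDAC1 against 88.1, 83.0 and 82.1 CPM with the empty vector. The difference between the HDAC1 effects was -0.4716 on the log2 scale (adjusted p = 0.0290, edgeR), from -0.13 with TGFB1 (95% interval -0.27 to 0.01) and 0.34 in vehicle (95% interval 0.20 to 0.48). The 3 libraries with the empty vector in vehicle were the lowest of the 12. Mitotic markers showed the same kind of difference, with 3 of 10 called lower in the interaction (beside 50 of 14601 genes tested). The part of cell division in this pattern was not tested.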

How the results depend on the processing

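Of the list results outside the fits that left out 1 library, 85 were the same and 7 moved. These labels went by size, so a list median that changed sign was not counted apart. No single subunit call or named ratio reversed its sign in any fit. Subunits called for HDAC1 in vehicle numbered 2, with 4 without a filter on low counts (Gatad2a and Mbd3 added) and 1 with the heart and brain covariate (Chd3 lost). With TGFB1 the count was 0, with 1 by DESeq2 (Rbbp4), and the median of 0.0041 became -0.041 with the covariate. On average over conditions it was 4, with 1 under the covariate (Rbbp7). The interaction median of -0.0107 became -0.0603 with the covariate. The cause of these moves was not tested; the covariate is lowest in the 3 libraries with HDAC1 and TGFB1 and in 1 with the empty vector in vehicle, so it partly overlaps with the groups. Leaving out each library in turn gave 1 to 3 subunits called for HDAC1 in vehicle, 0 in every fit with TGFB1, 1 to 5 on average, 15 to 19 for TGFB1 with HDAC1 and 17 to 20 with the empty vector, and 0 in every fit for the interaction. Medians ranged from -0.0212 to 0.0471 for HDAC1 in vehicle and from 0.037 to 0.0996 for TGFB1 with HDAC1. Among fits of single called subunits other than those leaving out 1 or 2 libraries, 115 of 119 kept the call for TGFB1 with HDAC1 and 126 of 133 with the empty vector. For HDAC1 in vehicle 13 of 14 kept it, and on average 12 of 24. Leaving out 2 libraries together ended 4 of 19 calls for TGFB1 with the empty vector and 1 of 4 on average. It ended 0 of 17 for TGFB1 with HDAC1 and 0 of 2 for HDAC1 in vehicle. With the replicate number as a block, the average HDAC1 effect was called for 1 subunit (Rbbp7), and Sap30 was lost for TGFB1 with the empty vector. After each group's mean was subtracted, the remaining deviations of same-numbered libraries correlated at -0.0875 to 0.118 across genes. The labels give them only a shared number, and no pairing was assumed. With 8 residual degrees of freedom, the median subunit had a 95% interval of 0.158 to 0.161 to either side in the HDAC1 comparisons with TGFB1 and in vehicle, and of 0.113 for their average; the Sap18 row with 24 to 56 counts was the least precise.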
